A study of Rattus norvegicus with 3 samples.

Results

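Notch receptors, their ligands and a target of the pathway were followed in whole rat testis on postnatal days 6, 8 and 10. The set was named by symbol as Notch1, Notch2, Notch3, Notch4, Jag1, Jag2, Dll1, Hes1 and Hey1. Of these 9 genes, 6 were matched through their RefSeq accession to 1 probe set each, among 26299 genes on the array. They are NM_024358 (Notch2), NM_020087 (Notch3), NM_001002827 (Notch4), NM_019147 (Jag1), NM_032063 (Dll1) and NM_024360 (Hes1). Notch1, Jag2 and Hey1 had no match by accession and were not analysed here. The animals were Wistar-Imamichi rats born from natural matings, with no treatment named in the labels, and birth was called day 1. The groups were testes of day 6, day 8 and day 10, with 1 one-colour NimbleGen array for each day. The number of animals behind each RNA is not given in the sources used here. Notch2 and Notch3 were lower on day 10 than on either earlier day, 6.30-fold and 3.62-fold lower than on day 8 as deposited. Jag1 came just short of 2-fold in the same direction, and Hes1 differed by at most 1.40-fold between any of the days.

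Notch receptors are membrane proteins that are activated by ligands on a neighbouring cell, the Delta-like (Dll) and Jagged (Jag) proteins. Cleavage by an ADAM protease and then by gamma-secretase frees the intracellular part of the receptor, which joins the DNA-binding protein RBPJ and switches on genes of the Hes and Hey families of transcriptional repressors. In the mouse testis the pathway is known for keeping Leydig progenitor cells from differentiating in the fetus, and for carrying signals between germ cells and Sertoli cells, where Hes and Hey repressors act on the gene of the niche factor GDNF. Notch3 is known as a receptor of vascular smooth muscle and pericytes, and Notch4 as a receptor of endothelium.

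The promoters below belong to the 2 receptors that differed most with age and to Hes1, the textbook target, which was added after its values were seen, to set it beside them. Each runs 5′ to 3′ from 250 bases before to 50 bases after the annotated start, from RefSeq on GRCr8. The array files name no build, and only these windows are placed on one. Capitals mark the core of the RBPJ site, TGGGAA, and the HES box, CACNAG, on either strand. The windows are chr2:188299086-188299385 on the plus strand for Notch2, chr7:11834536-11834835 on the minus strand for Notch3 and chr11:84212996-84213295 on the minus strand for Hes1.
Notch2: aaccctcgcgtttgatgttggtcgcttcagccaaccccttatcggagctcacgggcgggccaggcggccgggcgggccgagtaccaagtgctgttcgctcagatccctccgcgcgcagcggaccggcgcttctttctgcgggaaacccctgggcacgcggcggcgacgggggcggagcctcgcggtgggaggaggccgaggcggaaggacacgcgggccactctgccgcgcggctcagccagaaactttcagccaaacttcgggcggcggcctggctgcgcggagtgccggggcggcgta
Notch3: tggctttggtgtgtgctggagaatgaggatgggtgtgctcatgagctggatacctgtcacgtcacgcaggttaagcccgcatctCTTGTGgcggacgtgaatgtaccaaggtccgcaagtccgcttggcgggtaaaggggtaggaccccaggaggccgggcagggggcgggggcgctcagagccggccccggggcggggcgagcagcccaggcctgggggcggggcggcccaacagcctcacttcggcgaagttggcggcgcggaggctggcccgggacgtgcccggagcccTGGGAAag
Hes1: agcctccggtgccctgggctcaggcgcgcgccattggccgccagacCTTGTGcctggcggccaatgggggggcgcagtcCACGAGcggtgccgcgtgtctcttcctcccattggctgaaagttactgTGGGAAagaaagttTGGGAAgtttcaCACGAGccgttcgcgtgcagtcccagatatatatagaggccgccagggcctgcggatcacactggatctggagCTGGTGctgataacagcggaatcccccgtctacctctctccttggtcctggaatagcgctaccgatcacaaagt

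The Hes1 window held 2 RBPJ cores on the same strand as the gene, starting 123 and 109 bases before the start, and 4 HES boxes, which did not overlap the cores. The Notch3 window held 1 RBPJ core, 42 bases after the start, and 1 HES box. The Notch2 window held neither motif. Of 33469 promoter windows of 300 bases, 25.7% held an RBPJ core and 43.1% a HES box, so a single match is common, and a match is a description of letters only.

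Values are intensities that the submitters made with RMA, on a linear scale, and a difference is the log2 intensity of the later day minus that of the earlier day. Since each day had 1 array, the spread between animals is unknown, nothing here could be checked in replicates or given a p-value, and effects of age cannot be told apart from those of the animal or the array. The series screens at 2-fold, and a gene was called changed at that size if it was above a floor on at least 1 of the days compared. Genes that met this floor are called tested, although no statistical test was possible. The floor was each array's median intensity, 220, 221 and 203 on days 6, 8 and 10. A lower background mark was the 95th percentile of 1239 olfactory and vomeronasal receptor probe sets, at 51.9, 48.4 and 69.1. In whole tissue, fewer cells of a type and less RNA per cell cannot be told apart. Of the tissue markers, Ddx4, Amh and Cyp17a1 were above the floor on all days. Not every listed marker was, and Zbtb16 of germ cells and Lhcgr of Leydig cells were under it throughout. Ddx4 of germ cells had 2310, 2278 and 2570, Amh of Sertoli cells had 2563, 2273 and 1550, and Cyp17a1 of Leydig cells had 16554, 14041 and 7038 on days 6, 8 and 10.

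Of the receptors, Notch2 differed most. It had an intensity of 3371 on day 6 and 4638 on day 8, and of 736 on day 10. Day 8 was the highest array and day 10 the lowest, and all 3 values lay above the floor. Notch2 was 6.30-fold lower on day 10 than on day 8 (log2 difference -2.66) and 4.58-fold lower than on day 6 (-2.20). Only 65 of 13969 genes tested had a lower difference between days 10 and 8, and 178 of 13955 between days 10 and 6. Day 8 against day 6 ran the other way, 1.38-fold higher on day 8 (0.46), short of 2-fold.

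Notch3 had the same shape at a dimmer signal. It had 305 on day 6 and 334 on day 8, and 92.2 on day 10. Days 6 and 8 were close to each other, 1.10-fold apart, while day 10 lay under the floor but above the receptors' 95th percentile, by 1.34-fold. As deposited, Notch3 was 3.62-fold lower on day 10 than on day 8 (-1.86) and 3.30-fold lower than on day 6 (-1.72). Against the floor of the day 10 array these become at least 1.64-fold and at least 1.50-fold lower.

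Notch4 did not share that shape. Its intensity was 161, 173 and 177 on days 6, 8 and 10, under the floor on every array and 2.57-fold to 3.57-fold above the receptors' 95th percentile. The array of day 10 differed by 1.10-fold from that of day 6, and since it was under the floor throughout it entered no comparison.

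Jag1, a ligand that germ and vascular cells among others can present, had 363, 460 and 235 on days 6, 8 and 10. It was again highest on day 8 and lowest on day 10, an order shared by 3414 of the 13969 genes tested between days 10 and 8, 24.4%. The day 10 value was 1.96-fold lower than on day 8 (-0.97) and 1.54-fold lower than on day 6 (-0.63), both short of the 2-fold threshold. Dll1, the other ligand measured, had 173, 159 and 154, under the floor on each day. Its largest difference between days was 1.12-fold.

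Hes1, the repressor that active Notch switches on in many tissues, had 1788, 1275 and 1575 on days 6, 8 and 10. Its lowest array was day 8, the one on which Notch2, Notch3 and Jag1 were highest. On day 8 it was 1.40-fold lower than on day 6 (-0.49), and 972 of 13496 genes tested had a lower difference. On day 10 it was 1.24-fold higher than on day 8 (0.30) and 1.14-fold lower than on day 6 (-0.18). None of these passed 2-fold, so Hes1 was not called on day 10, where Notch2 and Notch3 were.

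**Figure D1:**
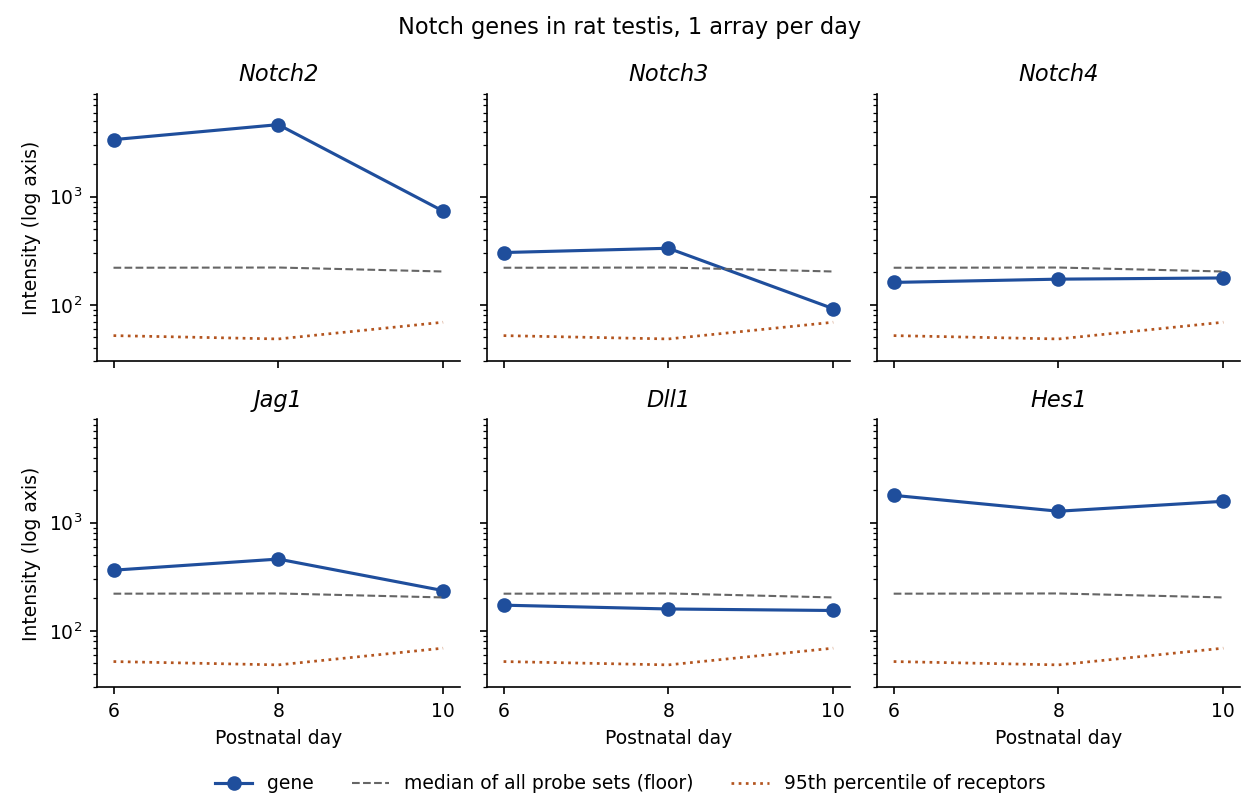
Intensity (log axis) of the 6 measured genes on postnatal days 6, 8 and 10, 1 array per day, with each array's median (dashed, the floor) and the 95th percentile of olfactory and vomeronasal receptors (dotted). Notch2 drops to 736 on day 10, Notch3 drops under the floor, Notch4 and Dll1 stay under it on all days, and Hes1 stays between 1275 and 1788.

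Counted together, 4 of the 6 genes could be tested in each comparison, and the counts are small. Between days 10 and 6, 2 of the 4 were at least 2-fold lower and 0 higher, where 12.8% of all 13955 genes tested were lower, 8.57% higher and 21.4% changed either way. Between days 10 and 8 again 2 of 4 were lower and 0 higher, where 13.7% of all genes were lower, 8.56% higher and 22.3% changed. In both comparisons the 2 were Notch2 and Notch3, counted as deposited. Notch3 was under the floor on day 10, and its bounds of 1.50-fold and 1.64-fold are short of 2-fold. Between days 8 and 6, 0 of 4 passed 2-fold, where 1.50% of all genes did. The comparisons with day 10 share its array, so their calls are not separate evidence. The median difference of the 4 genes was -1.18 for day 10 against day 6, 0.24 for day 8 against day 6 and -1.41 for day 10 against day 8. The medians over all genes tested in the same comparisons were 0.02, 0.04 and -0.01.

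**Figure D2:**
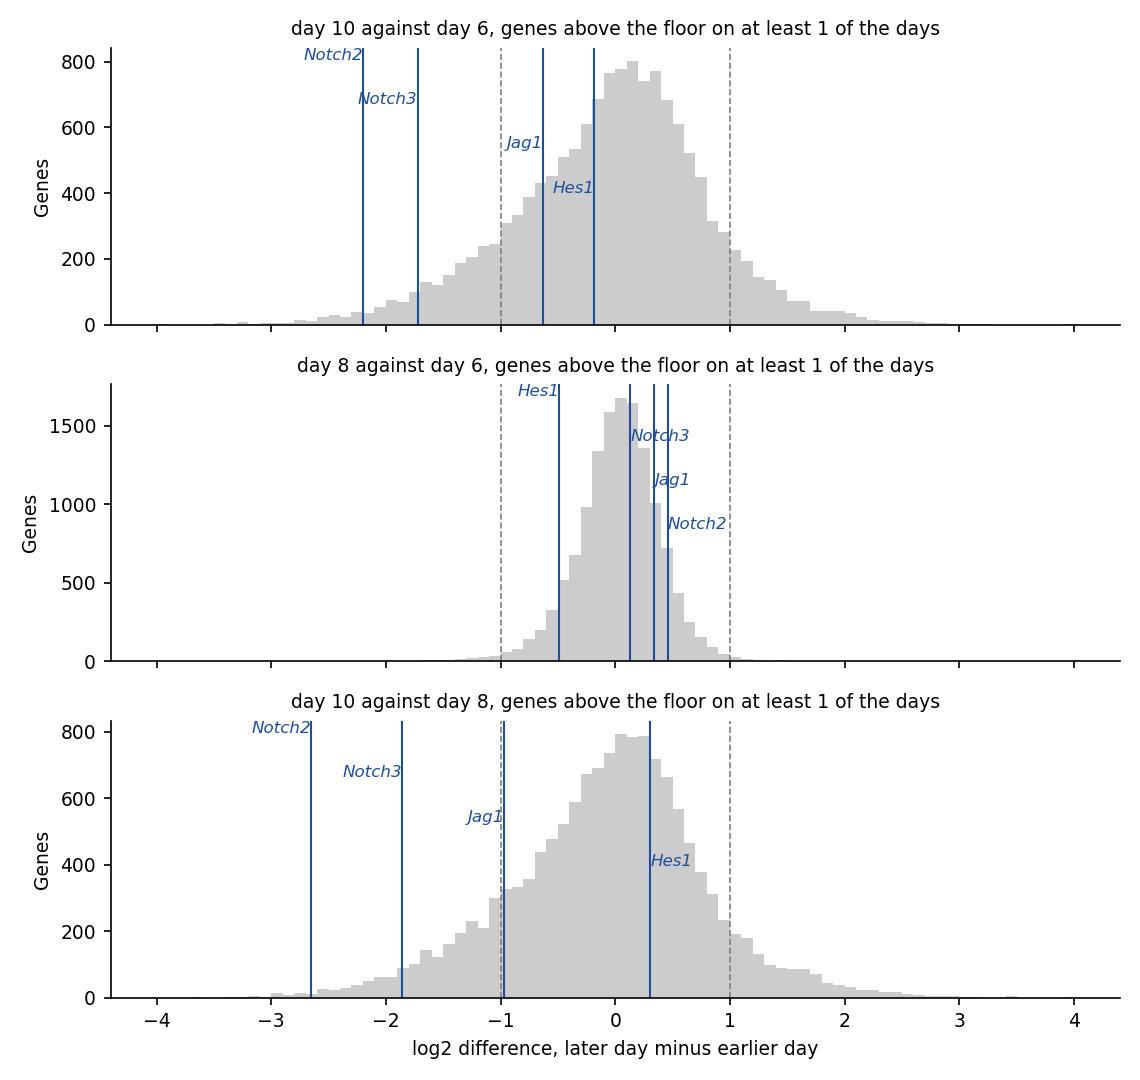
Histograms of the log2 difference of all genes above the floor in each comparison (x axis, later minus earlier day, with differences beyond 4 drawn at the edge, y axis, number of genes), with lines at the Notch genes tested and dashed lines at 2-fold. Notch2 at -2.20 and -2.66 and Notch3 at -1.72 and -1.86 stand in the lower tail of both comparisons with day 10.

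Differences on day 10 moved with the genomic span of genes, introns included. Over 5488 named genes, Spearman's rho between span and the difference of days 10 and 8 was -0.36, a relation across genes, which are not replicates. Notch2 spans 133 kb, in the longest of 10 equal groups of named genes, whose median difference was -0.45. Within that group, 8 of 549 genes had a lower difference than Notch2. With the trend subtracted, Notch2 had -2.19 between days 10 and 8 and -1.68 between days 10 and 6, still past 2-fold. Notch3 spans 51.0 kb, and with the trend subtracted it had -1.55 and -1.39. Hes1 is short, 2.41 kb, and the shortest group had a median of 0.37 between days 10 and 6. Hes1 had -0.18 there as deposited, with 66 of the 554 shortest genes below it, and -0.57 with the trend subtracted.

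**Figure D3:**
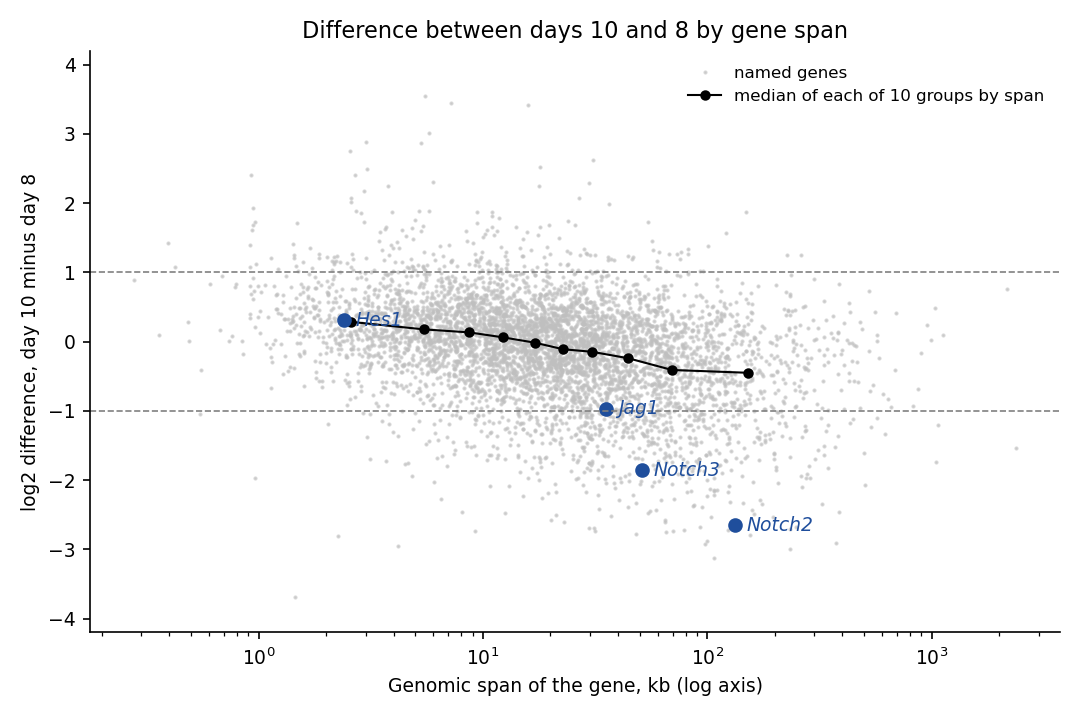
Log2 difference between days 10 and 8 (y axis) against genomic span in kb (x axis, log scale) for named genes (grey), with the median of each of 10 equal groups by span (black) and the 4 Notch genes tested (blue). Notch2 and Notch3 lie far under the medians of genes of their span, at -2.66 and -1.86, and Hes1 lies on its median.

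Genes with the most similar 3-day shape were sought by the Euclidean distance of log2 values centred on each gene's mean. For Notch2 the closest of 4969 named genes was Ptch1, the hedgehog receptor, at a distance of 0.04, with 2099, 2777 and 457 on days 6, 8 and 10. Zkscan1, a zinc finger gene, and Serinc5, a membrane protein, came next at 0.16 each. Only 7 genes lay within 0.25 of Notch2. For Notch3 the closest of 5189 were Dab2, an endocytic adaptor, Atf2, a transcription factor, and Zmynd11, a chromatin reader, at 0.02, 0.02 and 0.03, and 108 genes lay within 0.25. Notch3 was under the floor on day 10, so its candidates had to be above the floor on days 6 and 8 only. Its distances therefore rest in part on a value under the floor. With 3 arrays such a likeness is a description of shape only.

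The rest of the pathway was taken from a list of 85 textbook genes in 10 roles, of which 41 were matched by accession, 35 of them besides the genes above. Of 28 of these 35 that were tested between days 10 and 6, 5 were at least 2-fold lower and 1 was higher, 21.4%, level with the 21.4% of all genes and above the 16.1% of named genes. Between days 10 and 8, 6 of 28 were lower and 1 was higher, 25% against 22.3% of all genes and 15.8% of named genes. Between days 8 and 6, 0 of 27 passed 2-fold. The medians of the tested genes were -0.18, -0.40 and 0.17 for days 10 against 6, 10 against 8 and 8 against 6. RBPJ and the Mastermind coactivators had no match.

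Receptor turnover is given first of the 10 roles because of its values. Of its 13 listed genes 4 were matched, and all 4 were at least 2-fold lower on day 10 than on day 8 as deposited, against 13.7% of all genes. Itch, a ubiquitin ligase that marks Notch for degradation, had 2448, 2288 and 709 on days 6, 8 and 10. That was 3.23-fold lower on day 10 than on day 8 and 3.45-fold lower than on day 6. Numb, an adaptor that antagonises Notch, had 1752, 2216 and 888, and was 2.50-fold lower on day 10 than on day 8 and 1.97-fold lower than on day 6. Its relative Numbl had 267, 297 and 123, under the floor on day 10, which makes it at least 1.46-fold lower on day 10 than on day 8 and at least 1.31-fold lower than on day 6. Dtx4, a Deltex ubiquitin ligase, had 2546, 3865 and 1767, and was 2.19-fold lower on day 10 than on day 8. With the span trend subtracted Numb and Dtx4 had -0.86 and -0.71 between days 10 and 8, short of 2-fold, while Itch had -1.26.

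Of the proteases that process the receptor, Furin, which cuts Notch on its way to the surface, had 4567, 5424 and 2190 on days 6, 8 and 10. It was 2.48-fold lower on day 10 than on day 8 and 2.09-fold lower than on day 6. Adam17, a sheddase, had 6106, 5519 and 2822 and was 2.16-fold lower on day 10 than on day 6. With each array centred on its median, Furin and Adam17 had -0.95 and -0.998 between days 10 and 6, just short of 2-fold, and Adam17 had -0.72 with the span trend subtracted. Psen2, of the gamma-secretase complex, had 1260, 1212 and 1452. The subunits Ncstn, Aph1a, Aph1b and Psenen had differences between -0.42 and 0.67 for day 10 against day 8, none at 2-fold.

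Among nuclear partners, Kat2b, a histone acetyltransferase that acts as a coactivator, had 1734, 1250 and 712 on days 6, 8 and 10, 2.44-fold lower on day 10 than on day 6. Subtracting the span trend left -0.80, short of 2-fold. Of 8 corepressor genes tested, Tle4, a Groucho protein that Hes factors recruit, was the only one past 2-fold, with 971, 1418 and 518. It was 2.74-fold lower on day 10 than on day 8 (-0.99 with the span trend subtracted). That is 12.5% of the 8 corepressors, near the 13.7% of all genes at least 2-fold lower between these days. Tle5, Ctbp1 and Hdac1 had differences of -0.20, -0.21 and -0.44 between days 10 and 8.

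Of 12 listed targets 5 were matched, while Hes6, Hes7, Hey1, Hey2, Heyl, Nrarp and Helt had no match and were not measured here. Among the matched targets besides Hes1, Id4 was the only one above the floor on any day. Id4 encodes an inhibitor of helix-loop-helix factors that marks undifferentiated spermatogonia in the mouse, and its place among Notch targets is less settled than that of the Hes genes. It had 114, 104 and 422 on days 6, 8 and 10. The first days lay under the floor, so it was at least 1.91-fold higher on day 10 than on day 8 and at least 1.92-fold higher than on day 6. As deposited the folds were 4.04 and 3.70. Hes2, Hes3 and Hes5 had 23.9 to 50.1 on the 3 days, each under the 95th percentile of the olfactory and vomeronasal receptors on its array.

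The remaining roles held no tested gene past 2-fold. Dlk1, a membrane protein related to the ligands that is known in progenitor cells, had 22641, 20166 and 12746 on days 6, 8 and 10, 1.78-fold lower on day 10 than on day 6. With the span trend subtracted that difference was -1.04, past 2-fold. Lfng, a glycosyltransferase that tunes which ligand a Notch receptor answers, had 373, 676 and 461, and was 1.81-fold higher on day 8 than on day 6. Epn1, an adaptor for ligand endocytosis, had 5239, 6687 and 5448. The ligand Dll3 had 56.5, 52.8 and 72.1, under the floor throughout.

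**Figure D4:**
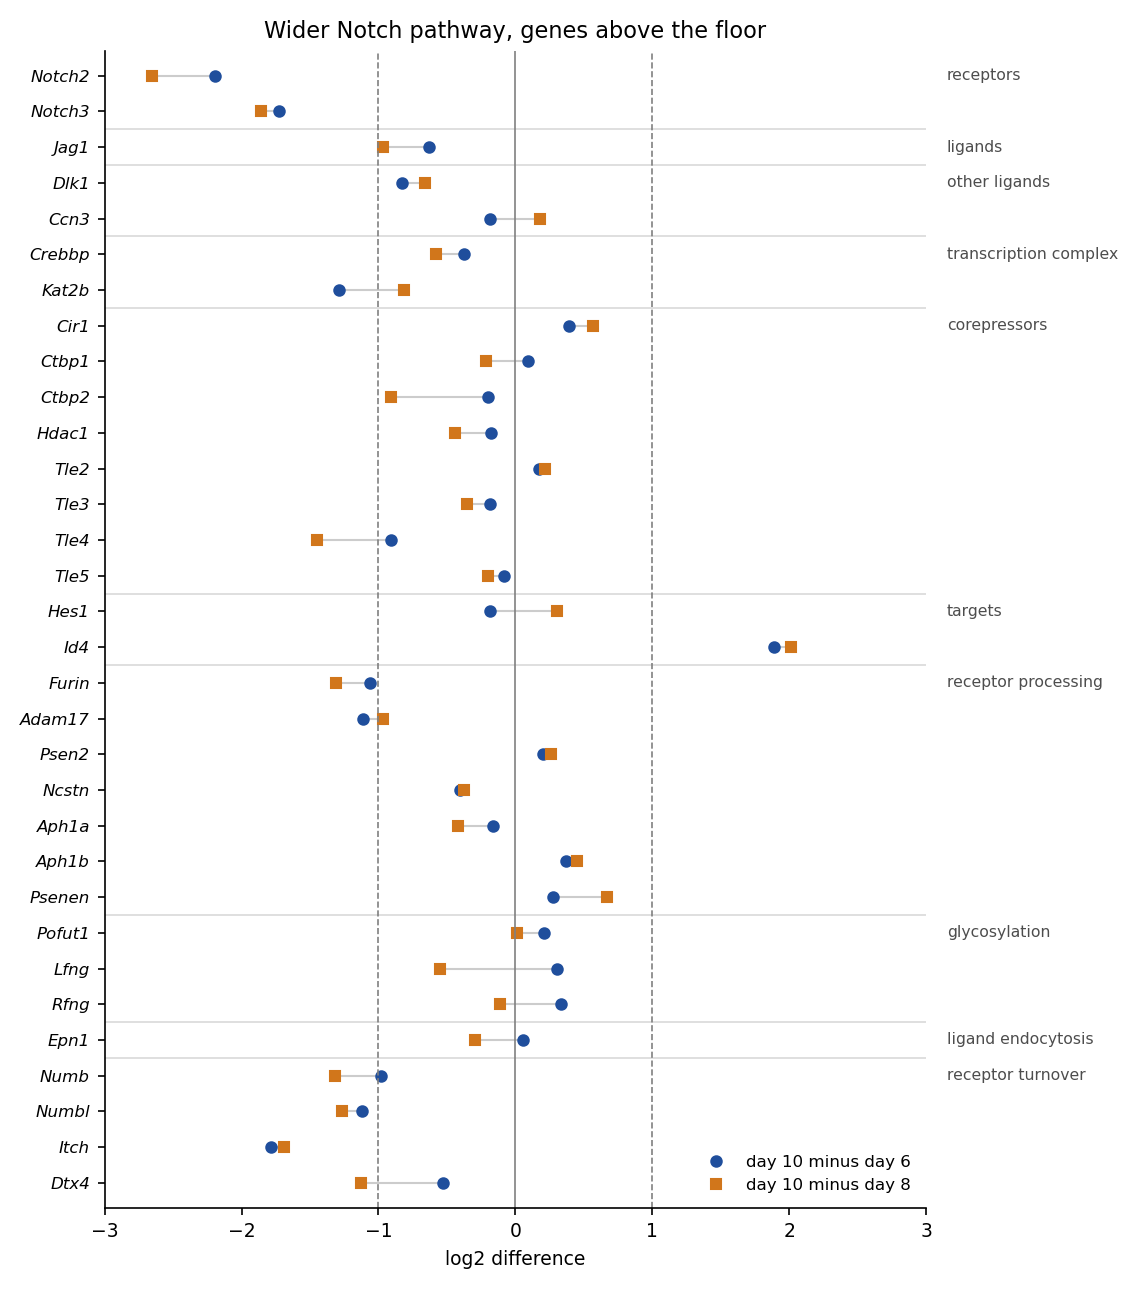
Log2 difference on the x axis for genes of the wider Notch list above the floor, 1 per line and ordered by role, for day 10 minus day 6 (circles) and day 10 minus day 8 (squares), with dashed lines at 2-fold. Notch2, Notch3, Itch, Furin and Numbl lie left of -1 in both, Id4 lies right of 1 in both, and most other genes lie between the lines.

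Markers of other cells were set beside these values, and those at least 2-fold apart on day 10 are named. The share of all genes at least 2-fold lower between days 10 and 8 was 13.7%, and 8.56% were higher. Of 12 endothelial markers 7 were matched, with summed intensities of 7419, 7996 and 4289 on days 6, 8 and 10. Of the 6 tested between days 10 and 8, 3 were at least 2-fold lower (Kdr, Eng and Clec14a) and 0 higher. Kdr was under the floor on day 10, which makes it at least 2.23-fold lower than on day 8. Pecam1 had -0.66, Esam -0.50 and Emcn 0.22. Flt1, at 176, 181 and 35.2, was under the floor on all days. Cdh5, Tek, Tie1, Vwf and Egfl7 had no match. The 2 arterial connexins matched of 6 arterial markers differed from each other. Gja5 had 1826, 893 and 196 on days 6, 8 and 10, while Gja4 had 1988, 3243 and 2084. Of the 8 pericyte and peritubular smooth muscle markers matched besides Notch3, 0 passed 2-fold in any comparison. Their median between days 10 and 8 was -0.17, with a range from -0.70 (Pdgfrb) to 0.35 (Rgs5). Notch3 had -1.86 as deposited, but its day 10 value was under the floor, which makes it at least 1.64-fold lower.

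The 6 Leydig markers matched of 7 summed to 27599, 25050 and 11955 on days 6, 8 and 10. Cyp17a1 was the largest of the 6 on each day. Between days 10 and 8, 4 of the 5 tested had a negative difference, 2 of them (Star and Hsd3b1) at least 2-fold lower. Insl3 went the other way, with 0.30, and Lhcgr was under the floor on all days. Over all genes tested between these days, 50.6% had a negative difference. Of 7 fetal or progenitor interstitial markers 4 were matched, summing to 16323, 20399 and 11151. All 4 had a negative difference between days 10 and 8, and Ptch1 and Wnt5a were at least 2-fold lower. Between days 10 and 6 Tcf21 went the other way, with 0.11. The Sertoli markers matched, 8 of 10, summed to 66102, 78054 and 60352. Of these, 6 of 8 had a negative difference between days 10 and 8, and 3 were at least 2-fold lower as deposited (Gata4, Fshr and Gdnf). Gdnf had 130, 237 and 60.0 on days 6, 8 and 10, and only day 8 was above the floor. Against the floor of day 10 it was at least 1.16-fold lower than on day 8, short of 2-fold.

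The 7 of 8 germ cell markers matched summed to 5006, 5664 and 7059 on days 6, 8 and 10, and they did not move together. Of 5 tested between days 10 and 6, 2 were at least 2-fold higher and 2 lower, where 8.57% of all genes were higher and 12.8% lower. Tex101 had 722, 1328 and 2943, and Ret had 340, 724 and 931. Kit had 769, 927 and 244. Dnmt3l had 672, 102 and 112, under the floor on days 8 and 10, which makes it at least 3.30-fold lower on day 10 than on day 6.

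The 4 matched of 5 markers listed for epididymis, rete testis and tissue around the testis summed to 1236, 1053 and 2625 on days 6, 8 and 10. Of the 3 tested between days 10 and 6, 2 were at least 2-fold higher as deposited, where 8.57% of all genes were. Msln had 788, 543 and 1997, the largest of the 4 on each day. Aqp1 had 127, 165 and 270, under the floor on days 6 and 8, which makes it at least 1.22-fold higher on day 10 than on day 6. Pax8, under the floor throughout, had 143, 155 and 112. The 4 of 5 red cell markers summed to 28628, 32764 and 41050, with Rhd at 236, 276 and 560 and Slc4a1 at 355, 363 and 143. The 5 of 6 macrophage markers summed to 5969, 7077 and 6773. Between days 10 and 6, 1 of the 5 was at least 2-fold higher, where 8.57% of all genes were. It was C1qb, at 418, 473 and 874, 2.09-fold higher. In the same comparison 2 of the 5 were lower, Csf1r with -0.34 and Adgre1, under the floor on day 10, with -0.41. The part of all these markers in the differences of Notch2, Notch3 and Jag1 was not tested.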

How the data were processed

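Rat testis RNA of 3 ages was hybridised to 1 one-colour array per day, and arrays were grouped by the labels' collection time. The deposited values are 1 intensity per RefSeq accession, made with RMA per the submitters' processing notes. Its version, its settings and the build are not given in the sources used. RMA aligns the arrays, which hides any shift common to most genes. Precision is limited by the number of arrays. A column named as a standard error was not used. Intensities were taken to log2 (pandas 2.3.3, Python 3.11.15) and named by unversioned accession through the RefSeq table of GRCr8, which also gave spans. Of 26419 probe sets, 9747 had 1 symbol, and averaging those of a symbol gave 26299 genes.

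Alternatives used limma 3.58.1 and a lowess fit of the difference on log10 span (fraction 0.3, 3 iterations, statsmodels 0.14.6). Calling was run on simulated data as a check of the code only. The noise was chosen small and the changes were larger than the threshold and in bright genes. It therefore says nothing of errors in these arrays. Named were the 9 genes, listed genes past 2-fold, the brightest gene of other roles, and the 3 nearest genes in shape. Promoters were searched for 2 motifs, and no protein sequence was used. The members and lists were chosen with earlier results of these data known. From the wider list, 1 gene is not reported here and is left out of its counts.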

Additional observations from a re-analysis of the deposited data

How the results depend on the processing

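The calls of Notch2 and Notch3 on day 10 kept their direction and stayed past 2-fold under all 8 alternatives run. These were 3 other scalings, 2 other floors, the span trend subtracted, the series value table and probe sets taken alone. Only the 3 scalings and the span trend could move these differences. The lower floors, the identical series values and the single probe sets leave them unchanged by construction. Against the floor of day 10, Notch3 was at least 1.64-fold lower than on day 8. Against day 6 it was at least 1.50-fold lower, so both bounds are short of 2-fold. Between days 10 and 8 Notch2 ranged from -2.66 to -2.19 and Notch3 from -1.86 to -1.55. The number of Notch genes changed was 2, 2 and 0 in every setting for days 10 against 6, 10 against 8 and 8 against 6. The sign of Dll1 between days 10 and 8, -0.05 as reported and under the floor, was 0.08 with arrays centred on their medians and 0.03 after quantile normalization. The wider list kept the sign of its medians, and its count between days 10 and 6 was 8, against 6 with arrays centred, 7 with the span trend subtracted and 9 with either other floor. Over all genes, 202 changed between days 8 and 6, against 688 with the floor at the receptors' 95th percentile and 765 with no floor. Subtracting the span trend covers named genes only. For days 8 against 6, 10 against 6 and 10 against 8 it gave 77, 728 and 707, where 84, 891 and 868 named genes changed as deposited. Of the called genes, 59.9% were lower between days 10 and 6, and 49.8% with arrays centred. No paired analysis was possible because each day has 1 array and the labels carry no replicate numbers; for the same reason no array could be left out. Taking probe sets alone changes no Notch gene, since each has 1.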
